A study of Mus musculus with 7 samples.

Results

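The transcripts described here are 10 genes best known from blood cells other than T cells, measured in cultures of CD8+ T cells. Of them, 6 are myeloid (*Lyz2*, *S100a8*, *S100a9*, *Tyrobp*, *Fcer1g* and *Csf1r*), 2 are erythroid (*Hba-a1* and *Hbb-bs*) and 2 belong to platelets (*Pf4* and *Ppbp*). They were found by symbol among the 55367 genes of the counts table, and all 10 were present. They were chosen by their values in the same comparison that is described here, so their own levels and differences are a description. The calls and counting intervals printed for them describe size and scatter and are not a test of the choice.

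Transcripts were counted in 7 libraries of CD8+ T cells, sorted per the labels by flow cytometry from spleens of Foxp3 YFP/cre mice, whereas the methods describe negative selection of cultured CD8+ T cells. Per the labels both groups received 100 μg/mL of small extracellular vesicles (sEVs) for 48 hours. The methods instead describe amounts set to those found in each kind of spleen, so whether the doses were equal is uncertain. HCME-sEVs (4 libraries) came from spleens of healthy mice, and LME-sEVs (3 libraries) from spleens of leukemic Eμ-*TCL1* mice, in which the transgene drives TCL1 in B cells. A legend of the study gives the group sizes the other way round, and the labels were followed here. The labels describe the treated cells of both groups as healthy and give neither the age nor the number of mice behind a library, and p-values then measure the spread between these libraries only, which may be technical. The methods describe T-cell cultures stimulated through CD3 and CD28 with IL2 after red cell lysis, and vesicles collected from the cell-free fluid of whole spleens, with no selection by cell of origin.

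Lysozyme, the S100A8/S100A9 complex and the CSF1 receptor are products of macrophages, monocytes and neutrophils. TYROBP and the Fc receptor gamma chain (FCER1G) are adaptors that pass signals from activating receptors through their ITAM motifs, in myeloid cells and also in NK cells, mast cells and basophils. Globin mRNA persists in reticulocytes after the nucleus is lost, and platelets, which have no nucleus either, carry the mRNA their megakaryocytes gave them, with the chemokines PF4 (CXCL4) and PPBP (the precursor of CXCL7) among the most abundant. In the spleen of the mouse, all these lineages can be made on site and are also delivered by the blood.

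Libraries held between 3689831 and 5030522 counts, and 3 counts, taken as the floor of what can be shown, corresponded to 0.582 to 0.807 CPM (counts relative to the TMM-normalized size of each library). The test took in the 12623 genes that averaged 5 or more counts in a library, and 162 of them had an FDR under 0.05 with a log2 fold change beyond 1 (edgeR quasi-likelihood test). The sorted cell type was present throughout: *Cd8a* lay between 341 and 376 CPM with HCME-sEVs and between 401 and 435 CPM with LME-sEVs, and the CD4 T-cell list (*Cd4*, *Cd40lg* and *Foxp3*) summed to 1.24 and 1.35 CPM on average. Each library reads the 3′ ends of transcripts, so levels of different genes can be set side by side without a length, except where close copies may share reads.

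Levels of the 10 transcripts covered a wide range. With HCME-sEVs the order of mean levels was *Pf4* (61.0 CPM), *Hbb-bs* (23.1), *Ppbp* (14.3), *Fcer1g* (4.30) and *Hba-a1* (3.35), whereas *Csf1r*, *Tyrobp*, *Lyz2*, *S100a9* and *S100a8* all lay under 0.7 CPM. In this order single libraries of *Hbb-bs* overlapped with those of *Ppbp*, those of *Fcer1g* with those of *Hba-a1*, and those of the 5 scarce transcripts with one another, whereas *Pf4* lay above *Hbb-bs* and *Ppbp* above *Fcer1g* in every library. The 5 more abundant transcripts passed the minimum of 5 counts and the other 5 did not. Among those 5, 3 were higher with LME-sEVs at an FDR under 0.05 (*Hba-a1*, *Pf4* and *Ppbp*), against 3.75% of all tested genes, and 0 were lower, against 5.21% of all tested genes. None reached a log2 fold change over 1 as well, which 0.626% of all tested genes did. The choice of the transcripts used this contrast, so nothing is read from these shares, and the count of 3 was 0 without HCME-sEV library 2, HCME-sEV library 4 or LME-sEV library 2, 1 without LME-sEV library 1 or 3, 2 without HCME-sEV library 1, and 0 with DESeq2. Only *Hba-a1* had every LME-sEV library above every HCME-sEV library, as had 9.49% of all tested genes.

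**Figure D1:**
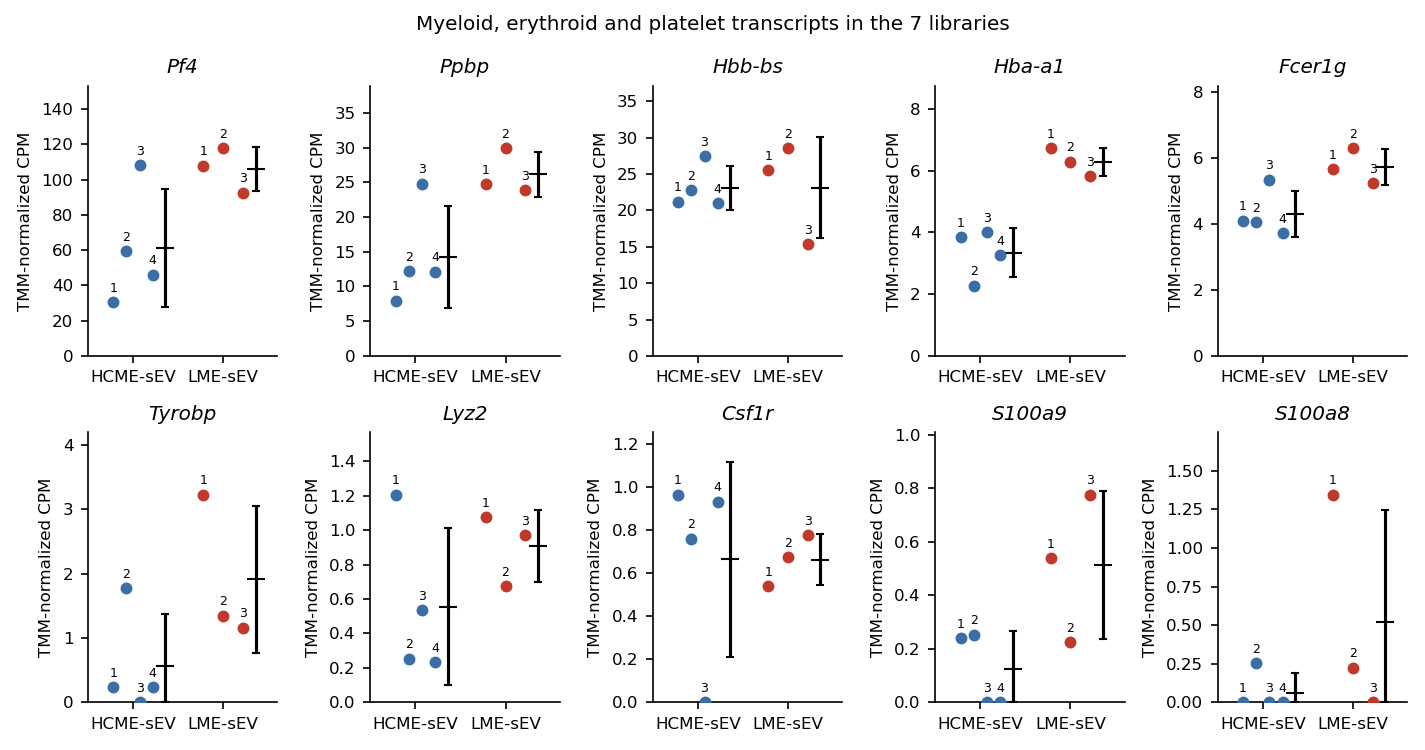
Level of each of the 10 transcripts in every library, as TMM-normalized CPM on linear axes that start at 0 and differ between panels. Points are libraries with their replicate number (4 with HCME-sEVs, 3 with LME-sEVs), and black bars are means ± SD, cut at 0. *Pf4* and *Ppbp* of HCME-sEV library 3 lie among the LME-sEV libraries, and the groups are apart for *Hba-a1* alone.

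*Pf4* and *Ppbp* encode chemokines stored in the alpha granules of platelets, and of the 5 more abundant transcripts they had the largest SD in CPM among HCME-sEV libraries. *Pf4* gave 126, 235, 405 and 198 counts in HCME-sEV libraries 1 to 4, and 401, 524 and 478 counts in LME-sEV libraries 1 to 3. After normalization these were 30.4, 59.6, 108.03 and 46.1 CPM with HCME-sEVs, and 107.89, 118 and 92.7 CPM with LME-sEVs. HCME-sEV libraries 1, 2 and 4 lay under all LME-sEV libraries, whereas HCME-sEV library 3 lay between them. The means were 61.0 ± 33.5 CPM (SD, n = 4) against 106 ± 12.6 CPM (SD, n = 3), a log2 fold change of 0.81 ± 0.23 (SE). Without HCME-sEV library 1 the log2 fold change was 0.58, and without HCME-sEV library 3 it was 1.23.

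*Ppbp* showed the same order of libraries. It gave 7.95, 12.2, 24.81 and 12.1 CPM with HCME-sEVs, and 24.75, 29.9 and 23.8 CPM with LME-sEVs. Again HCME-sEV library 3 reached the level of the LME-sEV libraries and HCME-sEV library 1 was lowest. The means were 14.3 ± 7.30 CPM (SD, n = 4) against 26.2 ± 3.26 CPM (SD, n = 3), and the log2 fold change was 0.89 ± 0.23 (SE), with values between 0.69 and 1.28 when single libraries were left out. The scatter among HCME-sEV libraries was far beyond counting noise for both genes, where chi-square over its degrees of freedom was 73.3 for *Pf4* and 14.7 for *Ppbp*, against 7.30 and 1.85 among LME-sEV libraries.

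The ratio of both chemokine transcripts hardly moved while their levels did. Per 100 counts of *Pf4* there were 26.2, 20.4, 23.0 and 26.3 counts of *Ppbp* in HCME-sEV libraries 1 to 4, and 22.9, 25.4 and 25.7 in LME-sEV libraries 1 to 3. All 7 libraries thus lay within 20.4 and 26.3, although *Pf4* itself differed 3.88-fold between its lowest and its highest library. The groups overlapped in this ratio (24.0 ± 2.81 with HCME-sEVs and 24.7 ± 1.52 with LME-sEVs). Both genes lie on the plus strand of chromosome 5 of GRCm38, *Ppbp* at chr5:90768518-90770063 and *Pf4* at chr5:90772435-90773383.

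**Figure D2:**
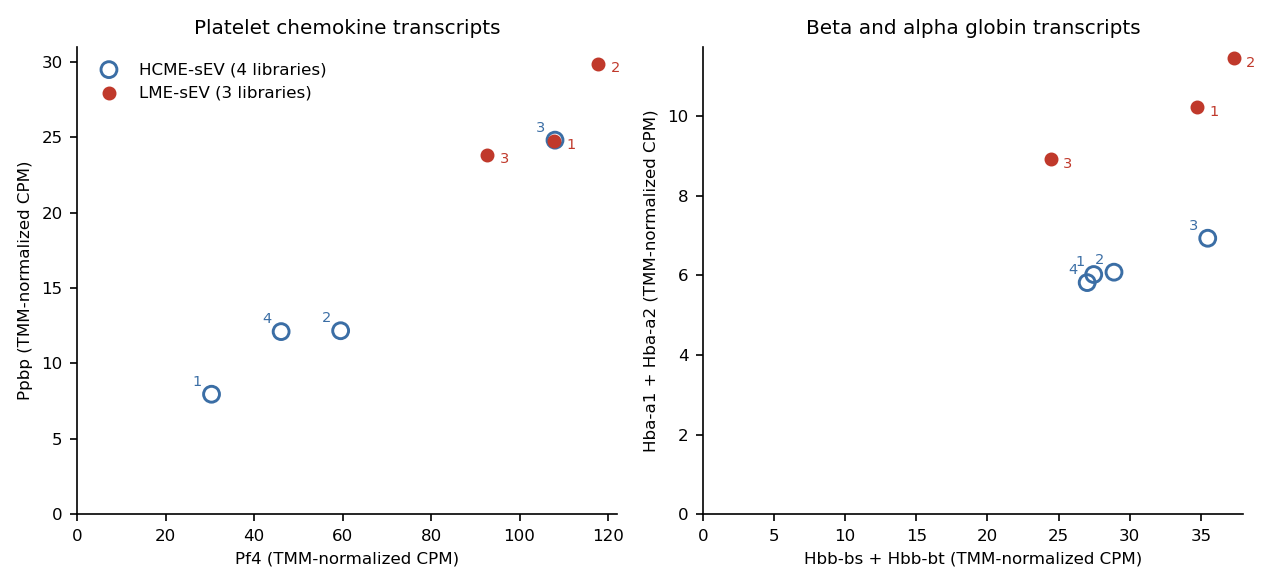
Left, *Ppbp* against *Pf4* in each library. Right, the sum of both alpha globin transcripts against the sum of both beta globin transcripts, all in TMM-normalized CPM with axes from 0. Open circles are the 4 HCME-sEV libraries, filled circles the 3 LME-sEV libraries, and numbers are replicates. The chemokine points fall along one line with HCME-sEV library 3 on top of LME-sEV library 1, and the 3 LME-sEV libraries lie above the HCME-sEV libraries in alpha globin.

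Because *Pf4* and *Ppbp* varied together, the 250 bases before each start are shown (RefSeq, GRCm38.p6, plus strand, chr5:90772185-90772434 for *Pf4* and chr5:90768268-90768517 for *Ppbp*). Capitals mark 2 of the motifs searched, the ETS core GGAAG on either strand (printed as CTTCC) and the TATA box TATAAA on the plus strand.
Pf4: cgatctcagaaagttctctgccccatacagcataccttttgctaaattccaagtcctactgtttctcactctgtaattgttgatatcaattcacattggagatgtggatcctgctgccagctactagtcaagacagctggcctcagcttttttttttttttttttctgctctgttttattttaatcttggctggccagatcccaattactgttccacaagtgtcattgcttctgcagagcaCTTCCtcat
Ppbp: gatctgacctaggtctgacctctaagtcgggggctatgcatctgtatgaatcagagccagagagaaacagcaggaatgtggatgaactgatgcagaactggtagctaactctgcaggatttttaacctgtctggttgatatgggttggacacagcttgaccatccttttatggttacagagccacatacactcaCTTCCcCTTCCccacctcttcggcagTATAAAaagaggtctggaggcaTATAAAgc

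In *Pf4* the ETS letters began 9 bases before the start, and in *Ppbp* they began 56 and 50 bases before it, with TATAAA at 30 and 8 bases before it. The letters of the GATA motif searched, AGATAA or TTATCT on either strand, were in neither window. Of 32536 promoter windows of the same length, 64.1% held the ETS letters, 7.55% TATAAA and 9.97% the GATA letters. Promoter entries matched 8 of the 10 genes, all but *Tyrobp* and *Csf1r*. These matches describe letters only.

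The other genes of platelets and megakaryocytes were read from a list of 23 genes, of which 15 were tested. At an FDR under 0.05 (edgeR, adjusted over all tested genes), 2 were higher with LME-sEVs and 2 were lower, and the median log2 fold change was 0.31 against 0.01 over all tested genes. Of all tested genes 3.75% were higher and 5.21% lower. *Nrgn*, the calmodulin-binding protein neurogranin, rose from 84.3 ± 15.9 CPM with HCME-sEVs to 137 ± 16.4 CPM with LME-sEVs (SD over 4 and 3 libraries, as in all means below), a log2 fold change of 0.69 ± 0.12 (SE) with FDR 0.0011. *Gng11*, a G protein gamma subunit, rose by 1.46 ± 0.42 (log2, SE; FDR 0.034) at a low level of 1.38 ± 0.811 and 3.77 ± 0.706 CPM. *Selp*, which encodes the adhesion receptor P-selectin, fell from 14.7 ± 1.42 to 8.05 ± 1.84 CPM (log2 fold change -0.88 ± 0.19, FDR 0.0064), and *F2rl3*, the thrombin receptor PAR4, fell from 9.13 ± 1.95 to 5.16 ± 0.283 CPM (-0.82 ± 0.23, FDR 0.030). Of these 4, *Nrgn* alone kept an FDR under 0.05 in all alternatives; the count of 4 was 2 without HCME-sEV library 1 or LME-sEV library 2 (*Selp* and *Nrgn*) and 1 without LME-sEV library 3 (*Nrgn*), and *Gng11* has no adjusted p with DESeq2.

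Summed, this list gave 333 to 367 CPM with HCME-sEVs and 381 to 441 CPM with LME-sEVs, without overlap. Of all tested single genes 9.49% had every LME-sEV library higher. The most abundant genes of this list were *Plek*, *Nrgn* and *Itgb3*, which took 86.1% of its counts. *Plek*, the kinase C substrate pleckstrin, had 162 ± 7.29 CPM with HCME-sEVs and 152 ± 2.73 CPM with LME-sEVs (FDR 0.51). *Itgb3*, the integrin chain of the fibrinogen receptor, had 57.0 ± 6.25 and 65.2 ± 7.52 CPM (FDR 0.30). Its partner *Itga2b*, a defining gene of megakaryocytes and platelets, gave 2.89, 4.81, 6.94 and 4.42 CPM with HCME-sEVs and 7.26, 7.64 and 7.37 CPM with LME-sEVs, and did not pass (log2 fold change 0.65 ± 0.27, FDR 0.14, and 0.0453 without HCME-sEV library 3). *Tubb1*, the platelet beta tubulin, was at 0 counts in all 7 libraries.

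*Pf4* and *Ppbp* were lowest in HCME-sEV library 1 and highest in HCME-sEV library 3 of their group. Of the 15 tested genes 9 were lowest in HCME-sEV library 1 (60%, against 26.8% of all tested genes) and 8 were highest in HCME-sEV library 3 (53.3%, against 28.4%). *Gp5*, a subunit of the platelet receptor for von Willebrand factor, gave 2, 15, 22 and 10 counts in HCME-sEV libraries 1 to 4. *Treml1*, a receptor of platelet alpha granules, gave 10, 19, 25 and 6 counts, highest in library 3 but lowest in library 4. *Thbs1*, the granule protein thrombospondin, gave 3, 25, 23 and 9 counts, lowest in library 1 but highest in library 2. Others differed at both ends: *Nrgn* was lowest in library 3 (76.9, 94.3, 65.6 and 100.3 CPM), and *F2rl3* was highest in library 1 and lowest in library 3 by CPM (50, 32, 30 and 36 counts). In the same libraries 6 of 10 genes of the T-cell list were lowest in library 1 as well, and 6 of 9 tested basophil, mast cell and eosinophil genes were. The part of any of these in the platelet values was not tested.

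**Figure D3:**
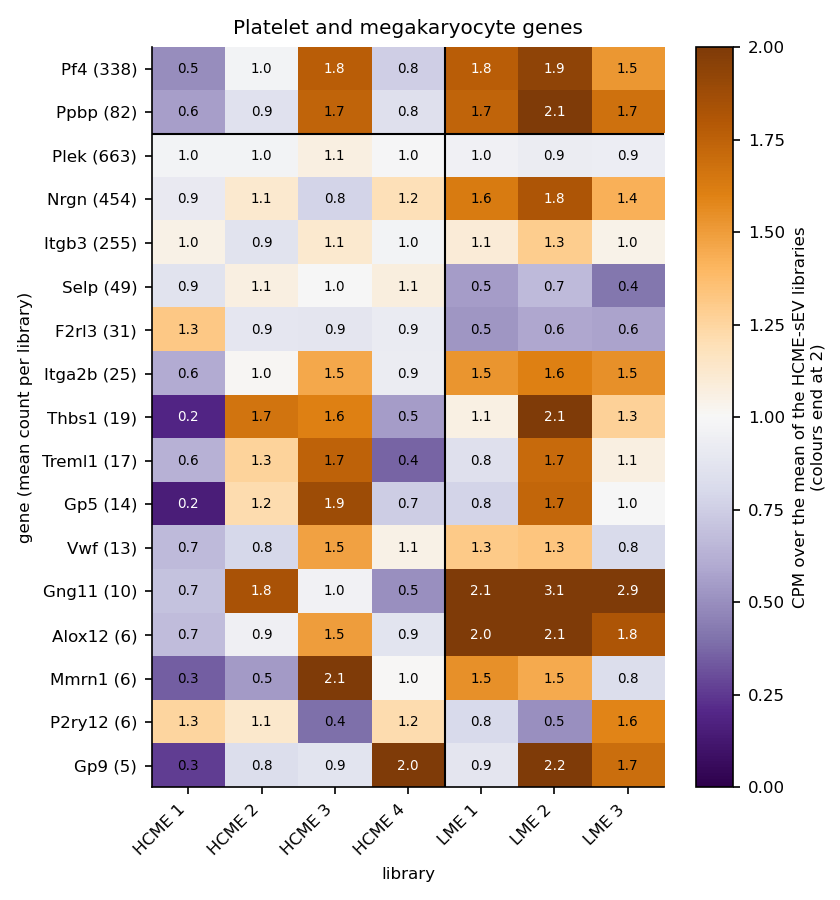
*Pf4* and *Ppbp* (above the line) and the 15 tested genes of the platelet and megakaryocyte list, ordered by mean count, in each library. Numbers and colours give CPM divided by the mean of the 4 HCME-sEV libraries for that gene, with colours ending at 2. HCME-sEV library 3 holds the highest HCME-sEV value of 8 of the 15 listed genes and HCME-sEV library 1 the lowest of 9.

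Hemoglobin is built of alpha and beta chains, and the erythroid transcripts *Hba-a1* (alpha) and *Hbb-bs* (beta) showed different patterns. *Hba-a1* gave 16, 9, 15 and 14 counts with HCME-sEVs, and 25, 28 and 30 counts with LME-sEVs. These were 3.85, 2.28, 4.0 and 3.26 CPM against 6.73, 6.29 and 5.82 CPM, and the groups did not overlap. The means were 3.35 ± 0.781 CPM (SD, n = 4) against 6.28 ± 0.455 CPM (SD, n = 3), with a log2 fold change of 0.90 ± 0.28 (SE), and within either group the counts scattered no more than counting noise (chi-square over its degrees of freedom 0.717 and 0.146).

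*Hbb-bs* gave several times more counts and did not follow. It gave 88, 90, 103 and 90 counts with HCME-sEVs, and 95, 127 and 79 counts with LME-sEVs. The levels were 21.2, 22.8, 27.5 and 21.0 CPM against 25.6, 28.5 and 15.3 CPM, so that LME-sEV libraries held both the highest and the lowest value. The means were 23.1 ± 3.02 CPM (SD, n = 4) against 23.1 ± 6.94 CPM (SD, n = 3), with a log2 fold change of -0.01 ± 0.17 (SE). It was 0.24 without LME-sEV library 3 and -0.21 without LME-sEV library 2, and 0.03 when scaled by library size only.

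Both genes have close copies, and reads could be shared between them. The last 300 bases of *Hba-a1* (chr11:32283511-32284465) and *Hba-a2* (chr11:32296489-32297298) differ at 1 base, so how counts were split between these 2 is uncertain, and their sum is the safer quantity. Reads dropped for having several positions, if any were, would be missing from the sum too. The sum was 25, 24, 26 and 25 counts with HCME-sEVs, and 38, 51 and 46 counts with LME-sEVs, or 6.22 ± 0.493 CPM (SD, n = 4) against 10.2 ± 1.27 CPM (SD, n = 3), a ratio of 1.64 with no overlap. *Hba-a1* was chosen on this contrast, and 9.49% of all tested genes had every LME-sEV library above every HCME-sEV library. *Hba-a2* alone overlapped between the groups (2.87 ± 0.697 and 3.92 ± 1.10 CPM, edgeR FDR 0.46). *Hbb-bs* (chr7:103826534-103828096) and *Hbb-bt* (chr7:103812524-103813996) are 89.0% identical over 281 bases of their ends. Their sum was 29.7 ± 3.93 CPM (SD, n = 4) against 32.2 ± 6.81 CPM (SD, n = 3), and the groups overlapped.

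The proportions of the globin transcripts within a library are given as a description, since *Hba-a1* and *Hbb-bs* were chosen on this contrast. No share over other genes was taken for such ratios. Per 100 counts of beta globin (*Hbb-bs* and *Hbb-bt*) there were 21.9, 21.1, 19.6 and 21.6 counts of alpha globin (*Hba-a1* and *Hba-a2*) with HCME-sEVs, and 29.5, 30.7 and 36.5 counts with LME-sEVs. The HCME-sEV libraries lay close together and all were below the LME-sEV libraries. If reads with several positions were dropped, alpha globin may be counted too low against beta globin, and how such reads were handled is not given. Per 100 counts of *Hbb-bs* there were 29.6, 26.7, 29.1 and 28.9 counts of *Hbb-bt* with HCME-sEVs, and 35.8, 30.7 and 59.5 counts with LME-sEVs. LME-sEV library 3, the lowest in *Hbb-bs*, stood highest in both ratios.

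No tested gene in the rest of the erythroid list passed the test. Of 24 genes 8 were tested, and 0 had an FDR under 0.05 with edgeR (0 with DESeq2, and 2 at an unadjusted p under 0.05). The median log2 fold change was 0.24, against 0.01 over all tested genes, and 7 of the 8 were above 0. *Hbb-bt* had 6.60 ± 0.939 CPM with HCME-sEVs and 9.01 ± 0.212 CPM with LME-sEVs (log2 fold change 0.45 ± 0.21, FDR 0.20), and *Tal1*, a factor of early erythroid and megakaryocyte cells, had 2.25 ± 0.657 and 4.18 ± 1.57 CPM (0.93 ± 0.36, FDR 0.12). The genes with the most counts were *Hemgn* (55.6 ± 5.29 and 57.8 ± 13.9 CPM), *Bpgm* and *Car2*, with FDR from 0.60 to 0.85. They took 74.5% of the counts of the list. Its sum was 109 to 116 CPM with HCME-sEVs and 117 to 138 CPM with LME-sEVs, without overlap. Of all tested single genes 9.49% had every LME-sEV library higher. *Kel*, the Kell blood group antigen, was at 0 in all libraries.

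Of 12 genes of heme synthesis and iron handling, all were tested, and *Tfrc* alone had an FDR under 0.05. *Tfrc*, the transferrin receptor through which cells take up iron, gave 767, 659, 633 and 692 CPM with HCME-sEVs and 535, 483 and 459 CPM with LME-sEVs. Every LME-sEV library was lower, the log2 fold change was -0.48 ± 0.08 (SE, FDR 0.0011), and the FDR stayed under 0.05 in all 14 alternatives. The median of the 12 genes was 0.04.

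Among the myeloid transcripts, *Fcer1g* (chr1:171229572-171234365), the gamma chain shared by Fc receptors, was the one with enough counts for the fit. It gave 17, 16, 20 and 16 counts with HCME-sEVs, and 21, 28 and 27 counts with LME-sEVs. The levels were 4.10, 4.05, 5.33 and 3.72 CPM against 5.65, 6.29 and 5.23 CPM, and HCME-sEV library 3 lay just above LME-sEV library 3. The means were 4.30 ± 0.708 CPM (SD, n = 4) against 5.73 ± 0.533 CPM (SD, n = 3), and the log2 fold change was 0.41 ± 0.26 (SE). Replicates scattered less than counting noise.

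*Tyrobp* (chr7:30413760-30417585), the adaptor also known as DAP12, gave 1, 7, 0 and 1 counts with HCME-sEVs, and 12, 6 and 6 counts with LME-sEVs. HCME-sEV library 2 exceeded 2 of the 3 LME-sEV libraries. Pooled over libraries these were 9 and 24 counts, or 0.558 and 1.80 CPM, a ratio of 3.23 with an exact 95% interval of 1.45 to 7.90. The intervals given for pooled counts cover counting error alone, and replicates of *Tyrobp* with HCME-sEVs were not of one level.

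The remaining myeloid transcripts were near or under the floor of 3 counts. *Lyz2* (chr10:117277331-117282321), the lysozyme of macrophages, gave 5, 1, 2 and 1 counts with HCME-sEVs and 4, 3 and 5 with LME-sEVs, a pooled ratio of 1.62 (0.625 to 4.34). Its end is nearly identical to that of *Lyz1*, which was at 0 in every library, and reads matching both, if dropped, would be missing from both genes. *Csf1r* (chr18:61100598-61132149), the receptor for CSF1 and IL34, gave 4, 3, 0 and 4 counts and 2, 3 and 4 counts, a pooled ratio of 0.991 (0.363 to 2.63), and its exons overlap those of *Hmgxb3* on the other strand, with which reads could be shared if counting ignored the strand.

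The subunits of calprotectin, the most abundant protein complex of the neutrophil cytosol, were the scarcest of the 10. *S100a8* (chr3:90668978-90670035) gave 0, 1, 0 and 0 counts with HCME-sEVs and 5, 1 and 0 counts with LME-sEVs, so that LME-sEV library 1 held 5 of the 6 counts of its group. *S100a9* (chr3:90692632-90695721) gave 1, 1, 0 and 0 counts and 2, 1 and 4 counts. The pooled ratios were 7.27 (0.882 to 334) and 4.24 (0.807 to 41.8), and both intervals include 1. In bulk libraries a change in the number of cells of a type cannot be told apart from a change in RNA per cell.

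Summed over the 6 myeloid transcripts, HCME-sEV libraries held 6.27 ± 0.978 CPM (SD, n = 4) and LME-sEV libraries 10.2 ± 1.86 CPM (SD, n = 3), with ranges of 5.12 to 7.35 and 8.92 to 12.4 CPM that did not meet. Every LME-sEV library was higher for 9.49% of all tested single genes too. Of the counts in the myeloid sum 84.7% came from *Fcer1g*, *Tyrobp* and *Lyz2*, each of which overlapped between the groups, and the transcripts were chosen on this contrast. The ratio of means was 1.63, and 2.29 without *Fcer1g*, where only transcripts under the minimum for the test are left. The erythroid sum was 26.5 ± 3.37 and 29.4 ± 7.29 CPM, with overlapping groups and a ratio of 1.11 that was 1.87 without *Hbb-bs*. The platelet sum was 75.3 ± 40.8 and 132 ± 15.6 CPM, again with overlap, and its ratio of 1.76 was 1.51 without HCME-sEV library 1 and 2.36 without HCME-sEV library 3.

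The wider myeloid repertoire was sparse in these libraries. Of 66 other genes of monocytes, macrophages, neutrophils and dendritic cells, 36 had at most 3 counts in every library, and 15 were tested. *Fcgr1*, *C1qa*, *C1qc*, *Elane*, *Fcnb*, *Cebpe* and *Cd209a* were at 0 in all 7. At an FDR under 0.05, 1 gene was higher with LME-sEVs and 2 were lower, and the median log2 fold change of the 15 was 0.21. Of all tested genes 3.75% were higher and 5.21% lower. Below the minimum for the test, *Itgam*, the integrin chain CD11b, gave 0, 0, 0 and 1 counts with HCME-sEVs and 6, 8 and 6 with LME-sEVs, and *Itgax*, the chain CD11c, gave 3, 1, 2 and 0 counts and 5, 4 and 11 counts. For both, every LME-sEV library was higher in CPM, as for 9.49% of all tested genes, and both were named after their values were seen. No such share was taken for genes below the minimum. Other sparse genes of these lists had lower means with LME-sEVs and overlapping groups, such as *Spi1* (0.943 and 0.613 CPM), *Clec7a* (0.639 and 0.229) and *Padi4* (0.517 and 0.154). The tested genes came almost wholly from the monocyte and macrophage list (12 of 35), whereas 1 of 22 neutrophil genes and 2 of 9 dendritic cell genes were tested, of which 0 passed (0 with DESeq2; 0 and 1 at an unadjusted p under 0.05).

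*Ccl6*, a chemokine made by macrophages, neutrophils and eosinophils of the mouse, gave 5.30, 26.4, 23.2 and 11.9 CPM with HCME-sEVs and 65.4, 51.7 and 42.3 CPM with LME-sEVs. All LME-sEV libraries were higher, and the log2 fold change of 1.68 ± 0.27 (SE) had FDR 6.62e-04 and stayed under 0.05 in all 14 alternatives. *Ccr2*, the receptor for CCL2 on monocytes and on activated T cells, fell from 167 ± 15.9 to 118 ± 7.46 CPM, by 0.49 ± 0.09 (log2, SE; FDR 0.0017). *Ifitm3*, an interferon-induced membrane protein, fell from 35.0 ± 5.92 to 20.9 ± 2.90 CPM, by 0.73 ± 0.14 (FDR 0.0034). The most abundant others, *Ctss* and *Cst3*, which encode cathepsin S and its inhibitor cystatin C, had 141 ± 8.55 and 165 ± 8.57 CPM, and 114 ± 20.5 and 139 ± 22.9 CPM, with FDR 0.089 and 0.14.

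**Figure D4:**
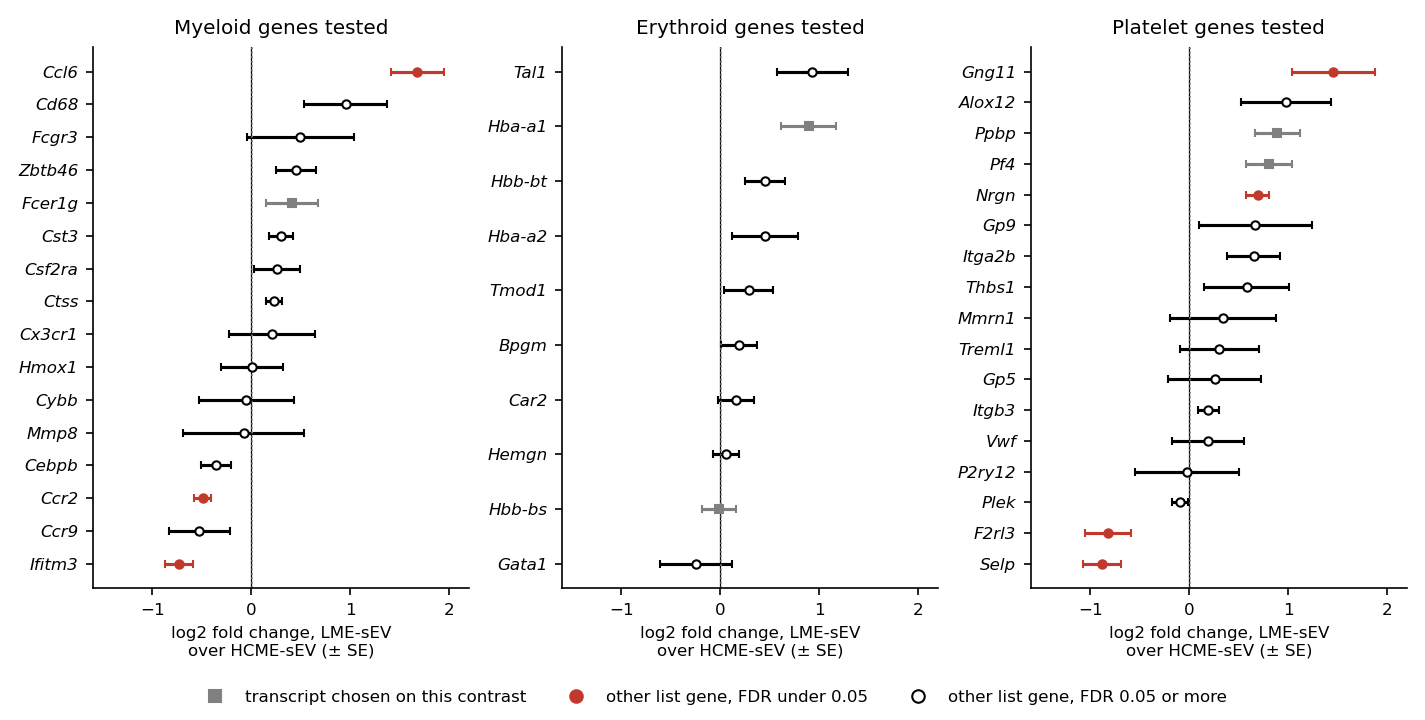
Log2 fold change (LME-sEV over HCME-sEV) ± SE of every tested gene among the 10 transcripts and the myeloid, erythroid and platelet lists, from the fit over all 12623 tested genes. Grey squares are the transcripts chosen on this contrast, filled red circles are other genes with an FDR under 0.05 and open circles the rest, and the dotted line is the median of all tested genes. *Ccl6*, *Nrgn* and *Gng11* lie to the right and *Ccr2*, *Ifitm3*, *F2rl3* and *Selp* to the left, and no gene of the erythroid list other than the grey squares is filled.

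Among the partners and kinases of the ITAM adaptors, *Klrk1*, *Cd247* and *Zap70* took 81.9% of the counts. Of 19 receptors and kinases 10 were tested, and *Klrk1* alone had an FDR under 0.05. *Klrk1*, the activating receptor NKG2D, which CD8+ T cells also carry, rose from 151 ± 28.7 to 213 ± 18.2 CPM, a log2 fold change of 0.50 ± 0.11 (SE, FDR 0.0077) that had FDR 0.067 without LME-sEV library 2. *Cd247*, the zeta chain of the T-cell receptor, had 145 ± 9.44 and 151 ± 22.8 CPM, and the kinase *Zap70* had 83.6 ± 3.06 and 79.8 ± 4.72 CPM, with FDR 0.77 and 0.71. *Trem2*, *Trem3* and *Clec5a*, myeloid receptors that signal through TYROBP, were at 0 in every library.

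Of 15 ligands and receptors of the encoded proteins 7 were tested, and 0 had an FDR under 0.05 with edgeR (0 with DESeq2, and 3 at an unadjusted p under 0.05). *Cxcr3*, the receptor that binds PF4 among other chemokines, had 42.0 ± 4.54 and 49.4 ± 3.51 CPM (FDR 0.19). *Csf1*, a ligand of CSF1R, had 1.90 ± 0.971 and 0.933 ± 0.809 CPM (FDR 0.31), and the other ligand, *Il34*, was at 0 in every library.

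Among other members of the S100 family of calcium-binding proteins, 6 of 9 were tested, and in contrast to the neutrophil pair they were abundant. *S100a11* rose from 139 ± 36.8 to 228 ± 24.8 CPM, by 0.71 ± 0.14 (log2, SE; FDR 0.0034, and 0.053 with DESeq2). *S100a10*, the partner of annexin A2, rose from 271 ± 49.4 to 349 ± 27.4 CPM (FDR 0.037), with an FDR of 0.0505 to 0.186 when any one of 5 libraries was left out (HCME-sEV 1, 2 or 4, LME-sEV 2 or 3). *S100a4*, which is expressed by memory T cells, fell from 41.8 ± 13.4 to 24.6 ± 6.09 CPM, by 0.75 ± 0.19 (FDR 0.017, and 0.072 and 0.13 without LME-sEV library 1 or 2).

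Markers of other cells were read in the same fit, in lists chosen with earlier results of these data known. At an FDR under 0.05, 3.75% of all tested genes were higher with LME-sEVs and 5.21% were lower. Of 11 genes of basophils, mast cells and eosinophils 9 were tested, 4 were higher with LME-sEVs (*Mcpt8*, *Prss34*, *Prg2* and *Kit*) and 0 lower, with a median log2 fold change of 0.96. The list summed to 36.6 ± 14.7 CPM with HCME-sEVs (20.2 to 49.4) and to 66.0 ± 12.4 CPM with LME-sEVs (51.8 to 75.1), and *Fcer1a*, which pairs with FCER1G in the IgE receptor, had 1.64 ± 0.903 and 2.08 ± 0.555 CPM. Of 14 B-cell genes 9 were tested, 3 were higher (*Ighm*, *Igkc* and *Cd74*) and 0 lower, and the list summed to between 274 and 317 CPM with HCME-sEVs and between 366 and 399 CPM with LME-sEVs, of which 89.7% came from *Ighm*, *Cd74* and *Cr2*. Of 6 NK-cell genes 3 were tested and 0 passed (0 with DESeq2, 1 at an unadjusted p under 0.05), and the list summed to 253 ± 26.7 and 241 ± 25.0 CPM. Of its counts 99.7% came from *Eomes*, *Gzma* and *Klre1*, whereas *Ncr1* and *Klra8* had at most 1 count in any library. The part of these other cells in the values of the 10 transcripts was not tested.

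The T-cell list itself was higher with LME-sEVs in 3 of 10 tested genes (*Cd3e*, *Cd3g* and *Cd28*) and lower in 0, and summed to 2649 ± 113 and 2988 ± 181 CPM. Of all tested genes 3.75% were higher and 5.21% lower at an FDR under 0.05. Of the calls in these marker lists, *Prg2* and *Ighm* had an FDR under 0.05 in every alternative, whereas *Mcpt8*, *Prss34*, *Kit*, *Igkc*, *Cd74*, *Cd3e*, *Cd3g* and *Cd28* had FDR 0.0541 to 0.286 without LME-sEV library 2. With DESeq2 the adjusted p was 0.355 for *Mcpt8*, 0.240 for *Prss34*, 0.278 for *Cd3g* and 0.0931 for *Cd74*, which left 2 calls in each of these 3 lists. Set against *Cd8a* in the same library, *Pf4* had 8.89, 15.9, 29.8 and 12.2 counts per 100 counts with HCME-sEVs, and 26.9, 27.1 and 22.1 with LME-sEVs. The groups overlapped here too, since HCME-sEV library 3 was the highest of all. *Fcer1g* had between 0.989 and 1.47 counts per 100 of *Cd8a* with HCME-sEVs and between 1.25 and 1.45 with LME-sEVs, and *Hbb-bs* between 5.57 and 7.57 and between 3.65 and 6.57.

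For the most abundant transcript of each lineage, the 3 tested genes with the most similar profile over the 7 libraries were sought by Pearson's r of log2 CPM. For *Pf4* these included *Lypd6b* (r = 0.997) and *Gnpda2* (0.988), and *Ppbp* came at rank 5 with 0.983. For *Fcer1g* they were *Qser1* (0.989), *Bhlhe41* (0.981) and *Galt* (0.979). For *Hbb-bs* they were *Rarg* (0.957), *Fto* (0.947) and *Veph1* (0.940), whereas *Hba-a1* had an r of 0.07 with it. With 12623 genes and 7 libraries that share depth and treatment, high values of r are found for many genes, and these are a description only.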

How the data were processed

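CD8+ T cells cultured with HCME-sEVs (4 libraries) or LME-sEVs (3 libraries) were profiled with the QuantSeq 3′ kit with unique molecular identifiers (UMIs). The deposited values are whole-number counts per gene symbol, which the authors made with cutadapt 2.10, STAR 2.5.3a on GRCm38, UMI-tools 1.0.0 and featureCounts of Subread 2.0.0 (versions per the submitters' processing notes), without normalization or filter. The annotation release, the strand setting and the handling of reads with several positions are not given in the sources used here. Collapsing by UMI removes PCR copies.

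The members and gene lists were chosen with earlier results of these data known. The genes that averaged 5 or more counts in a library were normalized by TMM and tested with edgeR 4.0.16 (quasi-likelihood F-test, R 4.3.3, no covariate), with Benjamini-Hochberg adjustment over all 12623 tested genes. The SE is the log2 fold change divided by the root of F. CPM are counts over the effective library size. Fold changes of all genes had a median of 0.01 (log2), and 0.06 when scaled by library size only. Pooled ratios of sparse genes carry exact 95% binomial intervals. The named genes were the 10 transcripts, every listed gene with an FDR under 0.05, the most abundant of each list, and the 3 most similar profiles, of which 1 is not reported here, while others, such as *Itga2b*, *Itgam*, *Itgax*, *Tal1*, *Gp5* and *Cxcr3*, were named after their values were seen. Coordinates are from GENCODE vM21 and promoters from RefSeq, both GRCm38, and near-identical ends were sought with blast 2.17.0. The steps were tested on simulated data. Alternatives covered the minimum on counts, scaling, DESeq2 1.42.0, a replicate block and leaving out each library.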

Additional observations from a re-analysis of the deposited data

Results flagged for a closer look

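Each HCME-sEV library was set against the other 3 by the gap to the nearest library over the range of the group, and 3 of 27 values examined exceeded the 95% limit for 4 libraries, where chance gives about 1 in 20. HCME-sEV library 2 stood apart in *S100a8*, with 1 count against 0 in the others (gap over range 1.0, a value that any single count against 3 zeros gives, so that it carries no information), and in *Tyrobp*, with 7 counts against 0 or 1 (0.864). HCME-sEV library 3 stood apart in the sum of *Hba-a1* and *Hbb-bs* (0.879), in which it was the highest. *Pf4* and *Ppbp*, whose highest HCME-sEV value was also in library 3, did not exceed the limit.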

How the results depend on the processing

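The number of genes with an FDR under 0.05 and a log2 fold change beyond 1 was 162, 105 with DESeq2 and 83 to 184 when single libraries were left out, and the number with an FDR under 0.05 was 1131, with 391 to 1305 when single libraries were left out. Transcripts of the 10 called higher numbered 3, and 0 with DESeq2 and 0 to 3 without single libraries. Other myeloid calls numbered 3, and 5 with no minimum on counts, where *Cst3* and *Itgam* were added. Other platelet calls numbered 4, 2 with DESeq2 and 1 to 5 without single libraries. The log2 fold change of *Hbb-bs* was -0.01, 0.0325 when scaled by library size only and -0.21 to 0.24 without single libraries. Ratios of summed levels were 1.63 for the myeloid transcripts, 2.29 without *Fcer1g* and 1.46 to 1.74 without single libraries, 1.11 for the erythroid transcripts, 1.87 without *Hbb-bs* and 1.01 to 1.27 without single libraries, and 1.76 for the platelet transcripts with 1.51 to 2.36 without single libraries. The cause of these shifts was not tested.

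The groups share replicate numbers 1 to 3, but same-numbered libraries deviated together only weakly (r = 0.07, 0.15 and 0.03), so the numbers were not taken as pairs. Libraries of different number had r from -0.21 to 0.08. The fit with the replicate block gives the results with the numbers taken as pairs. With the replicate block 179 genes had an FDR under 0.05 and a log2 fold change beyond 1, of the 10 transcripts 2 were called higher, and other platelet calls numbered 3. With at most 5 counts in any library, the counting intervals of the ratios of *S100a8*, *S100a9*, *Lyz2* and *Csf1r* all include 1.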
